A study of Mus musculus with 7 samples.

Results

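The 7 genes described here encode receptors for hormones and growth factors that reach the islets of Langerhans: the prolactin receptor (Prlr), the growth hormone receptor (Ghr), the leptin receptor (Lepr), the insulin receptor (Insr), the insulin-like growth factor 1 receptor (Igf1r), the interleukin 6 receptor alpha chain (Il6ra) and the GDNF family receptor alpha 3 (Gfra3). They were listed by name as a set of receptor genes, with earlier results of these data known, and are 7 of the 23465 genes in the count tables. In the GENCODE M21 annotation they have 43 transcripts, of which 37 had a row among the 69994 transcripts analysed.

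Islets of female C57BL/6 mice, 10 weeks old and with no genotype or treatment named in the labels, were dissociated and profiled by droplet single-cell RNA sequencing on a Nanopore long-read sequencer. Of 7 labelled samples in 4 groups, the values below come from the 2 libraries of a 5' assay with longer extension and added dNTP, called library 1 and library 2 (replicates 1 and 2); the others (3' and standard 5' long-read islets of the same kind, and 3' short-read islets of male mice aged 8 weeks) are not analysed here. Insulin cDNA had been removed from both with a Cas9-based panel, so a level is relative to the molecules that remained. Levels are UMIs (unique molecular identifiers, which count molecules) summed over the cells of a type and given as CPM, the usual scaling of counts to a fixed library total, here all UMIs of that sum. Fold changes of the tests also scale each sum by edgeR's TMM factor, which the levels do not, so the 2 can differ in direction. These factors were 0.80 and 0.81 in alpha cells and 1.08 and 1.08 in beta cells. Since UMIs were summed over cells, fewer expressing cells and less RNA per cell cannot be told apart from these levels alone.

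The prolactin, growth hormone and leptin receptors and Il6ra belong to the class I cytokine receptors, which have no kinase of their own and signal through JAK kinases and STAT factors; Il6ra does so through its partner gp130 (Il6st). Their long forms carry the intracellular tail that recruits STAT factors, whereas short forms lack most of it, and a shortened Ghr transcript encodes the soluble growth hormone binding protein. Insr and Igf1r are receptor tyrosine kinases that act through IRS proteins, PI3K and AKT. Gfra3 is the binding chain for artemin and signals with the kinase Ret. In islets, prolactin and growth hormone signalling is known for driving beta cell growth, including in pregnancy.

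Library 1 held 4814 kept cells and 11012364 UMIs (median 2110 per cell), and library 2 held 1093 cells and 12092393 UMIs (median 9949 per cell); 5 cell barcodes occur in both. The authors' cell types were checked against marker genes. Beta, alpha and PP cells (which secrete pancreatic polypeptide) carried their own hormones' markers. The type named delta joined 6 clusters, and 54.9% and 50.6% of its cells lay outside cluster 3, where the delta hormone gene Sst was highest (153701 and 111202 CPM). Summed beta cell markers (Ins1, Ins2, Iapp, Mafa, Nkx6-1 and Slc2a2, all 6 detected) reached 50491 and 44287 CPM in delta cells, against 2651 and 7332 in alpha cells. Iapp made up most of the delta sum, and in cluster 3 it stood at 34644 and 37194 CPM beside 348 and 169 of Ins1. Delta levels below are of the whole type unless clusters are named or left out. The part of beta cell RNA in them was not tested. The type named endothelial held a second cluster without endothelial markers but with the duct keratin Krt19 (cluster 15), which made up 8.51% of its cells in library 1 and 61.5% in library 2. In library 2 the stellate type held Schwann cell and nerve markers at 635 CPM against 7.68 in library 1.

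Prlr, on chromosome 15 (GRCm38, 10177238 to 10349180, plus strand), was concentrated in beta cells. Its level was 681.7 CPM in beta cells of library 1 (3710 UMIs) and 587.4 in library 2 (2577 UMIs). Delta cells followed with 228.1 and 180.3. Both libraries thus placed delta cells at about the same distance below beta cells, with no overlap. Alpha cells had 14.1 and 41.1, PP cells 25.2 and 39.3, stellate cells 69.1 and 40.3, macrophages 27.5 and 48.4, and endothelial cells 33.7 and 17.0. Alpha, PP and macrophage values overlapped, so Prlr in alpha and PP cells did not stand above the level of macrophages, where it rested on 3 UMIs in each library. Beta cells held 86.2% and 74.0% of all Prlr UMIs.

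**Figure D1:**
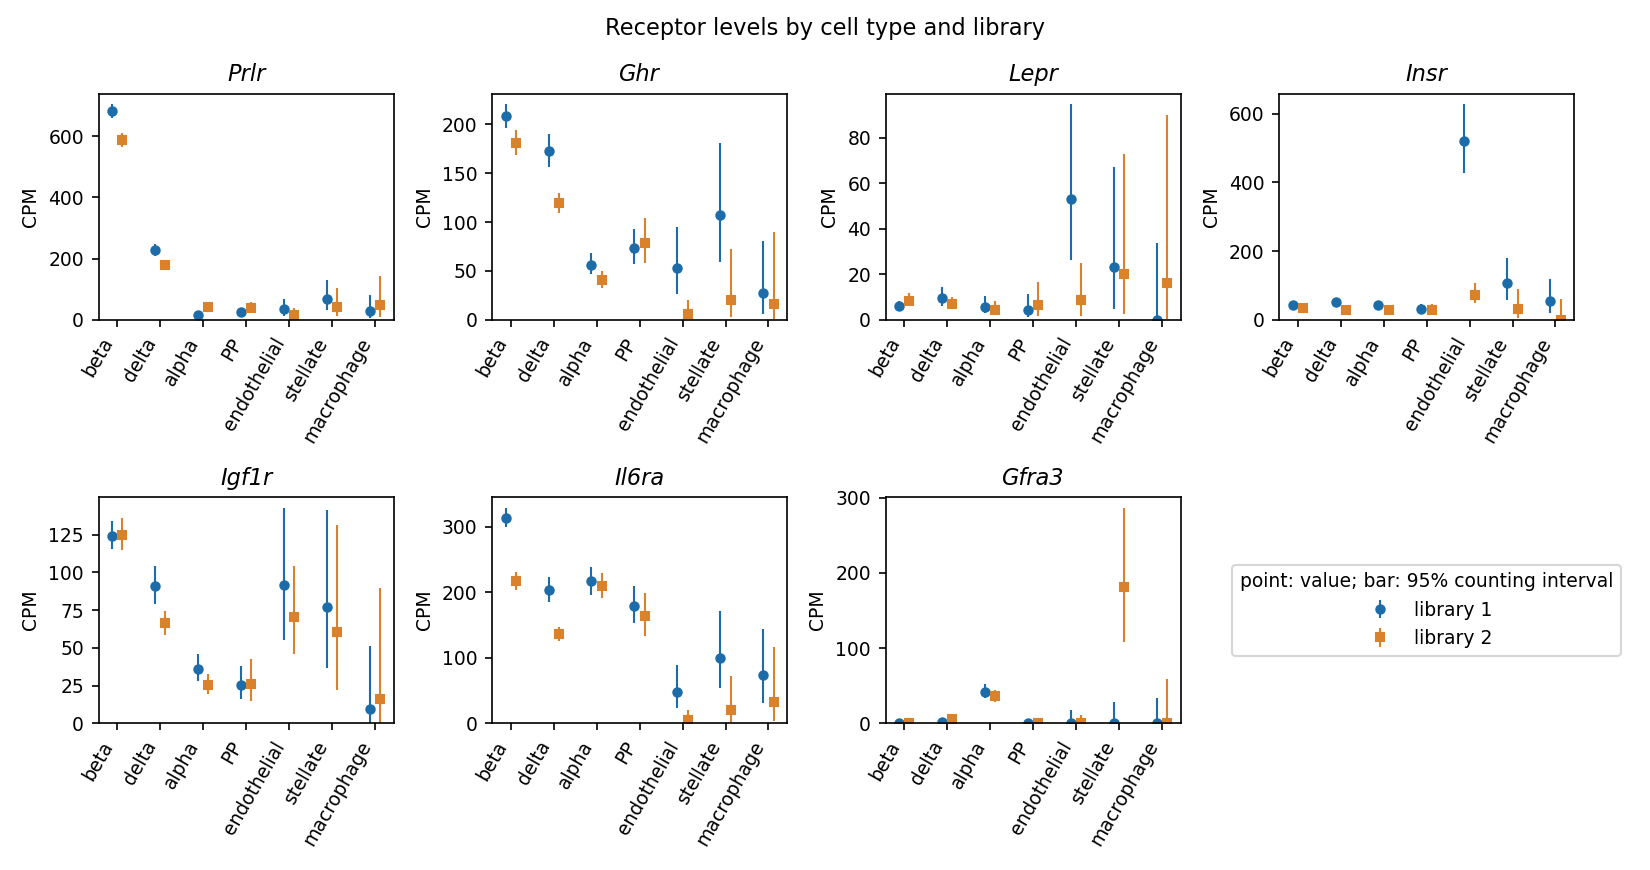
Levels of the 7 receptor genes in 7 cell types (x axis), in CPM (y axis, a separate linear scale for each gene), with a point for each library and a bar for the 95% counting interval. Prlr stands at 681.7 and 587.4 in beta cells and at or below 69.1 in the 5 types outside beta and delta, Insr is highest in endothelial cells, and Gfra3 is high in alpha cells of both libraries and in stellate cells of library 2 alone.

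Across the authors' clusters, Prlr split the delta type. In cluster 3, low in the insulin gene Ins1 as given above, it stood at 47.9 and 102.4 CPM. In cluster 8 it was 397.4 and 369.1, beside 2044 and 1388 CPM of Ins1 as well as 57624 and 44416 of Sst. In cluster 7 it was 627.7 and 219.6, beside 1568 and 327 of Ins1. In cluster 14, which carries the cell cycle gene Mki67 (448 and 289), it was 293.6 and 400.0 beside 1700 and 1389 of Ins1. Cluster 12 had 0 and 40.9, and the nerve-like cluster 16, with the neuronal filament gene Prph at 3707 and 3639, had 0 and 7.15. The high delta level of Prlr therefore lay in clusters 7, 8 and 14, which also held the most Ins1 within the type, and the part of beta cell RNA in these levels was not tested. Beta clusters also differed: clusters 0, 2 and 4 ranged from 571.1 to 856.2, and cluster 5, which also carries Ppy (6924 and 16715) and Sst (1745 and 3165), had 322.0 and 343.7.

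**Figure D2:**
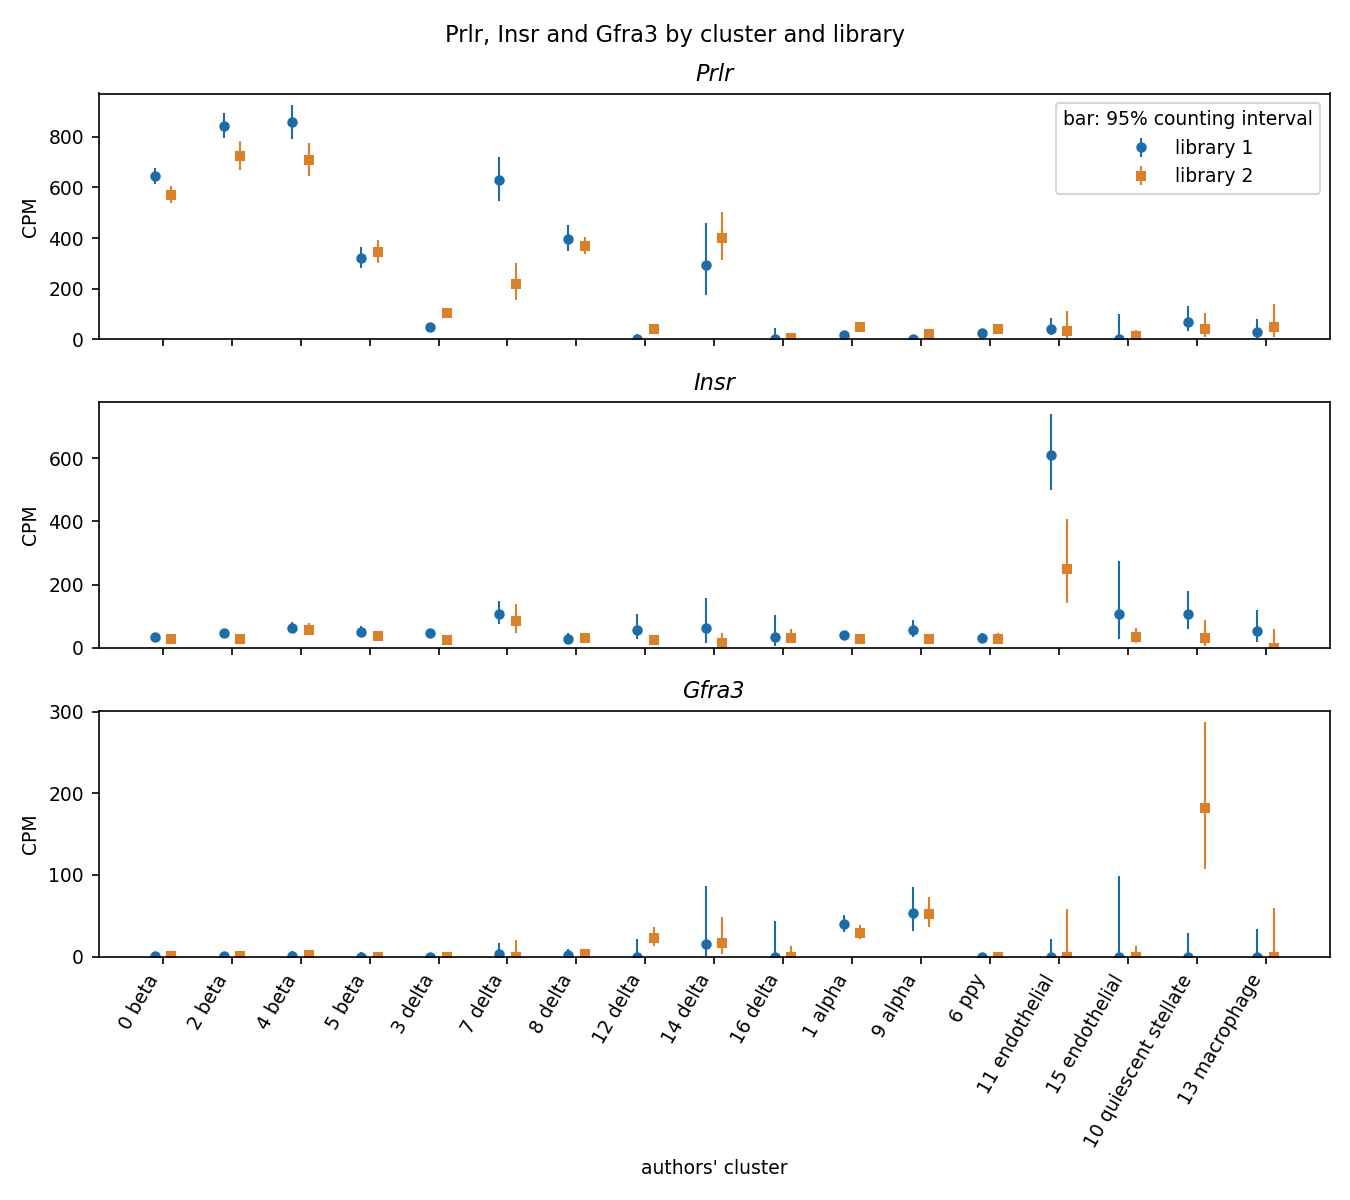
Prlr, Insr and Gfra3 in each of the authors' 17 clusters (x axis), in CPM (y axis, linear, separate for each gene), with a point for each library and a bar for the 95% counting interval. Prlr is high in the beta clusters and in the delta clusters 7, 8 and 14 but at 47.9 and 102.4 in cluster 3, Insr is highest in endothelial cluster 11 (610.6 and 250.7), and Gfra3 outside alpha cells is highest in the stellate cluster of library 2 (181.4).

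In edgeR's quasi-likelihood test with Benjamini-Hochberg adjustment over 13265 genes, 4 of the 7 receptors differed between alpha and beta cells, where 19% of all genes did: 1 was higher in alpha cells, beside 9.13% of genes, and 3 were lower, beside 9.91%. Prlr was lower in alpha cells by a log2 fold change of -4.10 ± 0.32 (SE; adjusted p = 4.30e-11), and in PP cells by -3.94 ± 0.35 (adjusted p = 1.05e-09). In delta cells the difference was -1.61 ± 0.27 (adjusted p = 5.61e-05), and it was -3.07 (adjusted p = 8.37e-23) when the 7 clusters with mixed or foreign markers (5, 7, 8, 12, 14, 15 and 16) were left out. Counts thinned to equal totals gave -1.24 for delta cells with an adjusted p of 0.0713. By library, the alpha difference was -5.13 in library 1 and -3.43 in library 2, so its size varied between them. The 3 comparisons share the beta cells, so they are not independent of each other, and the clusters come from the genes under test, which makes the p-values partly circular.

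Between single cells, 46.5% of beta cells in library 1 (exact binomial 95% interval 44.4 to 48.6%) and 47.6% in library 2 (42.8 to 52.4%) held a Prlr UMI after each cell was thinned to 1000 UMIs. Unthinned, the shares were 70.5% and 96.1%, at median depths of 2224 and 9947 UMIs. In alpha cells the thinned shares were 1.77% and 4.18%, in delta cells 16% and 11.9%, and in macrophages 0 of 50 cells (up to 7.11%) and 0 of 7 cells. At equal depth the libraries therefore gave the same beta share within their counting intervals. Macrophages, the type with the lowest thinned share, were set beside the others to gauge free RNA in the droplets. Their limits reach 7.11% and 41.0%, so alpha cells falling within them cannot tell Prlr of alpha cells from free RNA. Unthinned, 3 of 62 and 3 of 7 macrophages held a Prlr UMI (4.84% and 42.9%), larger shares than the 2.71% and 25.5% of alpha cells. These intervals cover counting error only.

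Prlr mRNA parts into forms after 840 shared coding bases, which encode the extracellular, membrane and first intracellular residues. The following lines, read from the GRCm38 genome with GENCODE M21 exons on chromosome 15, show where a read that crosses this point can tell the forms apart. How many reads crossed it was not measured. Lower case marks the last 24 shared bases, and capitals the bases that follow in each form (the first 90 for the long form, and up to the stop codon for the short forms).
Prlr-202 (long, chr15:10328281-10328370): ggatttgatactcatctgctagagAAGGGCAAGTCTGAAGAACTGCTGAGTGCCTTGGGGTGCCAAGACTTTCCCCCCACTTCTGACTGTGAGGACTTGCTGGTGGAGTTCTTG
Prlr-204 (short, chr15:10341774-10341812): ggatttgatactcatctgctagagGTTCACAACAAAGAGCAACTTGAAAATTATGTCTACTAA
Prlr-205 (short, chr15:10346410-10346502): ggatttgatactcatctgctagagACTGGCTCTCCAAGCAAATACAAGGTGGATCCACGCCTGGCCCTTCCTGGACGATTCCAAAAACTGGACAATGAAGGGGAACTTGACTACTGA
Prlr-212 (short, chr15:10345658-10345729): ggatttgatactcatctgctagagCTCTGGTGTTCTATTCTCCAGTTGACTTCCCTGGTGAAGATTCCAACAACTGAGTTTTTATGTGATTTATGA
After this point the long form adds 328 amino acids and the short forms 12 (Prlr-204), 30 (Prlr-205) and 23 (Prlr-212).

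Of the Prlr UMIs with a complete coding transcript, nearly all were the long form. A transcript was assigned to 55.4% and 53.4% of all Prlr gene UMIs, and the shares cover those. In beta cells of library 1, 1879 UMIs were assigned to the long form and 47 to the short forms, a long share of 97.6% (exact binomial 95% interval 96.8 to 98.2%), and in library 2 there were 1246 and 25, a share of 98.0% (97.1 to 98.7%). Delta cells had 265 long and 7 short UMIs, then 410 and 6, shares of 97.4% and 98.6%. All 12 and 43 coding UMIs in alpha cells and all 8 and 12 in PP cells were long. Of the short forms in beta cells, Prlr-205 had 28 and 17 UMIs, Prlr-204 had 12 and 5, and Prlr-212 had 7 and 3. The most frequent transcript without a complete coding frame was the retained-intron Prlr-201, with 109 and 61 UMIs in beta cells. With all transcripts as the denominator the long share in beta cells was 90.8% and 92.1%.

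The annotated starts of Prlr also separate the forms. Transcripts that begin between 10177238 and 10177781, the long form among them, held 97.4% and 97.6% of Prlr transcript UMIs over all cells. The 3 short forms begin at 10223986, 46748 bases further on, and held 2.26% and 1.67%. Each UMI was placed by the annotated start of its assigned transcript. Where the reads themselves begin was not measured, so these shares largely restate the forms above. The RefSeq windows from 250 bases before to 50 bases after the starts nearest to these (GRCm38.p6, plus strand) follow. Capitals mark a match to TTCNNNGAA, the motif bound by STAT5, the factor that prolactin activates.
Prlr upstream window (chr15:10176988-10177287): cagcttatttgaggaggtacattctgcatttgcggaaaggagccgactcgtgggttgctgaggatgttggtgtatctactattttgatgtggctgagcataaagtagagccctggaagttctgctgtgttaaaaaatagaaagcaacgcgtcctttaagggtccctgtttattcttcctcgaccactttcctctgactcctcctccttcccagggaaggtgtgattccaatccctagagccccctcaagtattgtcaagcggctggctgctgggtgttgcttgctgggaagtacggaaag
Prlr downstream window (chr15:10223656-10223955): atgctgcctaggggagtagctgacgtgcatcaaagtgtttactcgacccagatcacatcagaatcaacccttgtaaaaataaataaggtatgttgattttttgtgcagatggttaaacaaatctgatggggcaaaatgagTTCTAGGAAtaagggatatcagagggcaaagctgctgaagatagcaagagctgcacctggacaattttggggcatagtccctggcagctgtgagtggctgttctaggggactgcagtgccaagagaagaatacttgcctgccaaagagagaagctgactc
The downstream window holds 1 match and the upstream window 0. A further RefSeq window of Prlr (chr15:10293401-10293700), not shown, holds 0. Use of these windows in the cells was not tested. The motif reads the same on both strands, and 8.30% of 32851 windows of this length hold it. The windows of Il6ra, Lepr, Igf1r and Ghr in the same table hold no match.

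Ghr (chromosome 15, 3317760 to 3583492, minus strand) was highest in beta cells as well, at 208.0 and 180.8 CPM, followed by delta cells at 172.4 and 119.0. PP cells had 73.3 and 78.5 and alpha cells 56.5 and 40.7. The spread between libraries was wide outside the endocrine cells, with 107.5 and 20.2 in stellate cells and 53.0 and 5.66 in endothelial cells, the latter from 11 and 2 UMIs. Beta, delta, PP and alpha cells did not overlap one another, and the wide stellate range overlapped PP and alpha cells. Alpha cells were lower than beta cells by -1.60 ± 0.27 (SE, log2; edgeR adjusted p = 4.02e-05). PP cells were lower by -0.97 ± 0.28 (adjusted p = 0.0164). In delta cells the difference was -0.40 ± 0.24, with an interval of -0.90 to 0.10 (adjusted p = 0.347). The PP call was lost with DESeq2 (adjusted p = 0.143), and both the alpha and PP calls were lost without the replicate block, that is, without the library as a term (0.0588 and 0.272) and with counts thinned to equal totals (0.0689 and 0.333).

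The membrane and soluble forms of Ghr part after 811 shared coding bases. In the lines below, from chromosome 15 of GRCm38 (minus strand), capitals mark the bases after that point, which in Ghr-201 encode the membrane-spanning stretch and in Ghr-203 the short end of the binding protein, up to its stop codon.
Ghr-201 (membrane, chr15:3325899-3325988): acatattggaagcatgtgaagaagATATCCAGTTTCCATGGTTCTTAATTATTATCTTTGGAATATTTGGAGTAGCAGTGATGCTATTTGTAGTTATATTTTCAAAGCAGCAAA
Ghr-203 (binding protein, chr15:3327604-3327686): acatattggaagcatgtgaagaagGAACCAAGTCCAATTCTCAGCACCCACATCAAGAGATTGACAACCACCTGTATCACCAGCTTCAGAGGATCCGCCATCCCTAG
Unlike Prlr, Ghr was divided between the forms. In beta cells, 289 membrane and 326 binding protein UMIs in library 1 gave a long share of 47.0% (43.0 to 51.0%), and 247 and 185 in library 2 gave 57.2% (52.4 to 61.9%). These intervals do not overlap, so the libraries differed by more than counting error in the same cell type. Delta cells had 55.4% and 55.7%, alpha cells 58.5% and 53.8%, and PP cells 39.4% and 47.8%, each interval overlapping that of beta cells in the same library. A further 20.7% to 36.9% of Ghr transcript UMIs in endocrine cells lay in transcripts of neither class, mainly the retained-intron Ghr-210 and the incomplete Ghr-209.

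**Figure D3:**
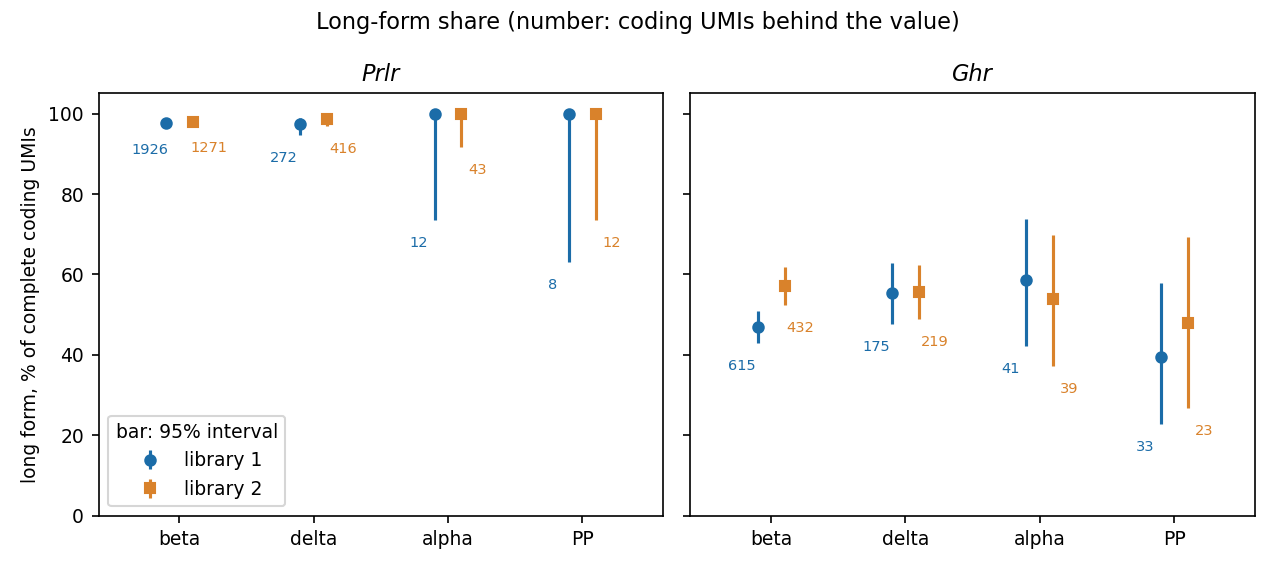
Long-form share of Prlr and Ghr (y axis, percent of UMIs assigned to complete coding transcripts) in 4 endocrine types (x axis), with a point for each library, a bar for the exact binomial 95% interval and the number of UMIs printed beside it. Prlr lies between 97.4% and 100% in every type, and Ghr between 39.4% and 58.5%.

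Lepr (chromosome 4, 101717404 to 101815352, plus strand) was rare, with 83 and 87 UMIs in all cells. Endothelial cells had 53.0 and 8.49 CPM (11 and 3 UMIs), the highest level in library 1 alone. Stellate cells had 23.0 and 20.2 (3 and 2 UMIs), and macrophages 0 and 16.1 (0 and 1 UMIs). In library 2 the endothelial level thus lay below those of stellate cells and macrophages. Endocrine types lay between 4.37 and 9.58 in both libraries and could not be ordered. Within the endothelial type, cluster 11, which carries endothelial markers, had 58.7 and 31.3, and the duct-like cluster 15 had 26.7 and 3.46. The difference of endothelial from endocrine cells was 1.73 ± 0.59 (SE, log2; edgeR adjusted p = 0.0244), and it rests on 14 UMIs. By library it was 2.70 in library 1 and 0.11 in library 2. The forms part after 2667 shared coding bases (chromosome 4, GRCm38, plus strand), with capitals for the bases that follow.
Lepr-201 (long, chr4:101814448-101814537): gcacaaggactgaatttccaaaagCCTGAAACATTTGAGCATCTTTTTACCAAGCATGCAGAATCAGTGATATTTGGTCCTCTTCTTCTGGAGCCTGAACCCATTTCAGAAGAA
Lepr-202 (short, chr4:101792071-101792082): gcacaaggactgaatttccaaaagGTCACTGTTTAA
Lepr-203 (short, chr4:101811348-101811365): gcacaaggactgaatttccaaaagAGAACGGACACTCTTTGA
The signalling form Lepr-201 had no row among the transcripts analysed. In endocrine cells all 14 and 9 coding UMIs were of the short Lepr-203. For counting error alone, the exact binomial 95% limits of a long share would be 23.2% and 33.6%. Whether Lepr-201 could have been counted is not known, since it had no row. These limits therefore do not bound the share of the signalling form. A transcript was assigned to 27.7% and 13.8% of Lepr gene UMIs, and the form of the rest is unknown. Leprot, a gene at the same locus that encodes a protein limiting receptor surface levels, was highest in endothelial cells in both libraries, at 221.4 and 96.2 CPM.

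Insr (chromosome 8, 3122061 to 3279617, minus strand) was highest in endothelial cells in both libraries, at 519.9 and 73.6 CPM. Cluster 11 alone had 610.6 and 250.7, so Insr was lower in library 2 within that cluster. The duct-like cluster 15 had 107.0 and 34.5, from few Insr UMIs among 37392 and 289439 in all. Whether cluster 15 differed between libraries beyond counting error was not tested. Cluster 15 made up 8.51% and 61.5% of the type's cells, and the part of this share in the gap between libraries was not tested. Endocrine types had 42.9 and 28.4 in alpha cells, 43.2 and 34.4 in beta cells, 51.4 and 28.9 in delta cells, and 32.8 and 29.4 in PP cells. PP cells lay just below beta cells, and the other endocrine ranges overlapped. Endothelial cells were higher than the mean of the endocrine types by 2.45 ± 0.29 (SE, log2; edgeR adjusted p = 4.76e-08), and by 3.28 (adjusted p = 3.72e-25) with cluster 15 and the 6 other mixed clusters left out. That second fit took the endothelial sum of library 2 from the 10 cells of cluster 11, below the minimum of 20 cells set for a type. With cluster 15 kept, the difference by library was 3.26 in library 1 and 0.99 in library 2. Against beta cells, the log2 difference was 0.27 in alpha cells (interval -0.39 to 0.93), 0.04 in delta cells (-0.58 to 0.66) and 0.00 in PP cells (-0.82 to 0.83), none past the threshold. Here too the alpha value is positive while the CPM of alpha cells lay below that of beta cells, as TMM factors enter the fold change alone.

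At 1000 UMIs per cell, 40.0% of endothelial cells in library 1 (29.5 to 51.2%, 85 cells) and 7.69% in library 2 (0.946 to 25.1%, 26 cells) held an Insr UMI, against 4.11% and 4.83% of beta cells. Unthinned, these shares were 48.9% and 57.7% in endothelial cells and 9.41% and 27.1% in beta cells. The insulin receptor is known in a form with and a form without a 36-base coding exon. The only complete coding transcript annotated, Insr-201, has no coding exon of that length, so the forms could not be told apart. Insr-201 held 146 of 180 and 90 of 110 transcript UMIs in beta cells, and retained-intron transcripts held the rest.

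Igf1r (chromosome 7, 67952827 to 68233668, plus strand) was highest in beta cells, at 124.4 and 124.9 CPM, the closest match between libraries of any receptor in beta cells. Endothelial cells had 91.5 and 70.8, delta cells 91.0 and 66.1, stellate cells 76.8 and 60.5, alpha cells 36.1 and 25.4, and PP cells 25.2 and 26.2. Endothelial and delta cells overlapped, as did delta with stellate cells and alpha with PP cells. Igf1r was lower than in beta cells by -1.62 ± 0.22 in alpha cells (SE, log2; edgeR adjusted p = 1.81e-06) and by -1.90 ± 0.27 in PP cells (adjusted p = 6.45e-06), and with counts thinned to equal totals both calls were lost (adjusted p = 0.102 and 0.195). In delta cells the difference was -0.65 ± 0.20 (adjusted p = 0.0236), a call made in 4 of 8 alternatives. It was lost with DESeq2 (0.0964), without the replicate block (0.197), with the authors' clusters from transcripts (0.0898) and with thinned counts, where the value was -0.19 (0.992). In the endothelial type, the Igf1r UMIs of library 2 were all in the duct-like cluster 15 (86.4 CPM), with 0 in the 63832 UMIs of cluster 11, and cluster 11 of library 1 had 76.3. Nearly all Igf1r UMIs were of the full coding transcript Igf1r-201, 97.9% and 96.1% over all cells.

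Il6ra (chromosome 3, 89864059 to 89913196, minus strand) was shared by all endocrine types. Beta cells had 314.0 and 217.5 CPM, alpha cells 217.1 and 209.6, PP cells 179.3 and 163.6, and delta cells 203.8 and 136.2. Outside them it fell to 99.9 and 20.2 in stellate cells, 73.2 and 32.3 in macrophages and 48.1 and 5.66 in endothelial cells. Every endocrine type lay above every other type in both libraries. The log2 difference from beta cells was 0.14 in alpha cells (interval -0.38 to 0.65), -0.21 in PP cells (-0.76 to 0.33) and -0.61 in delta cells (-1.12 to -0.10, adjusted p = 0.113). The alpha value is positive although CPM in alpha cells lay below that in beta cells, as TMM factors enter the fold change alone. Endothelial cells were lower than endocrine cells by -3.49 ± 0.40 (SE, log2; edgeR adjusted p = 3.22e-08), and stellate cells by -1.97 ± 0.41 (adjusted p = 0.000589). By library these differences were -2.57 and -5.20 for endothelial cells and -1.45 and -3.40 for stellate cells. Its signal-transducing partner Il6st was instead higher in endothelial and stellate cells than in endocrine cells. It had 120.4 and 121.7 CPM in endothelial and 130.6 and 120.9 in stellate cells, against 53.9 and 66.1 in alpha cells and 41.5 and 38.5 in beta cells. Macrophages had the lowest level of Il6st, 18.3 and 0 CPM, from 2 UMIs in all. Il6st was higher in endothelial than endocrine cells by 1.28 ± 0.23 (edgeR adjusted p = 5.97e-05), and in alpha than beta cells by 1.00 ± 0.21 (adjusted p = 0.000629).

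The annotated Il6ra transcripts differ in the coding sequence by 3 bases at a splice junction (chromosome 3, GRCm38, minus strand; at chr3:89878893-89878895) and in their downstream ends. Capitals mark the 3 bases in the first line and the joined bases in the second.
Il6ra-201: ctccttggatagCAGagcccaggacca
Il6ra-202: ctccttggataGAgcccaggacca
Il6ra-202 held 85.6% and 85.7% of Il6ra transcript UMIs over all cells. In PP cells the share of Il6ra-201 was higher than in beta cells by 22.4 and 10.9 percentage points, from 7 of 19 and 4 of 21 UMIs, with an edgeR adjusted p of 0.823 over all transcripts. Il6ra and Lepr had the lowest assignment of the 7 genes, and Il6ra had a transcript for 22.2% and 26.6% of its gene UMIs, where the median over genes with at least 100 UMIs was 70.8% and 69.8%.

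**Figure D4:**
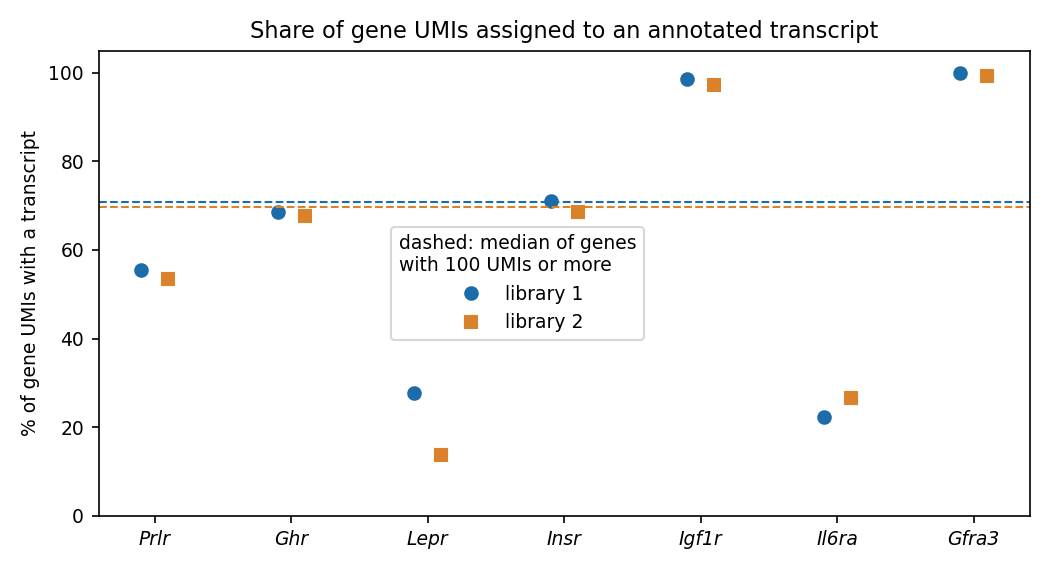
Share of each receptor gene's UMIs that had an annotated transcript (y axis, percent) for the 7 genes (x axis), with a point for each library and dashed lines at the median over genes with at least 100 UMIs (70.8% and 69.8%). Igf1r and Gfra3 lie at 97.3% to 100%, Prlr at 55.4% and 53.4%, and Lepr and Il6ra below 30%.

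Gfra3 (chromosome 18, 34689898 to 34720387, minus strand) was highest in alpha cells among the endocrine types. Alpha cells held 41.9 and 35.9 CPM (80 and 82 UMIs), delta cells 1.31 and 5.59, and beta cells 0.919 and 0.684 (5 and 3 UMIs). PP, endothelial and macrophage cells held 0 UMIs in both libraries, which against a floor of 3 counts per library makes alpha cells at least 12.8-fold and 7.31-fold higher than PP cells. The same bounds were 2.90-fold and 4.23-fold over endothelial cells, and 1.52-fold and 0.741-fold over macrophages. In library 2 macrophages thus could not be placed below alpha cells. Alpha cells exceeded beta cells by 5.89 ± 0.59 (SE, log2; edgeR adjusted p = 1.34e-08). DESeq2 gave 6.04 with an adjusted p of 0.0542. Both alpha clusters carried it, cluster 1 at 39.6 and 29.4 and cluster 9 at 53.2 and 52.3. At 1000 UMIs per cell, 3.55% and 2.51% of alpha cells held a Gfra3 UMI (unthinned, 7.70% and 23.8%).

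Gfra3 also appeared outside alpha cells in library 2. Stellate cells there had 181.4 CPM, against 0 of 130176 UMIs in library 1. Its 18 UMIs lay in 5 of 27 cells, with up to 10 in 1 cell. Of these 5 cells, 4 held UMIs of the Schwann cell factor Sox10, and none held the pericyte marker Rgs5, which 16 of the 27 cells had. Col1a1, another stellate marker, was in 1 of the 5 cells and in 3 of the 27. The same 5 cells held 1557 of the cluster's 1693 glucagon (Gcg) UMIs. The stellate excess over endocrine cells, 5.30 ± 0.96 (SE, log2; edgeR adjusted p = 0.000149), rests on library 2. Without that library the fitted value was -3.05, against 0 UMIs, and DESeq2 made no call on both libraries (adjusted p = 0.0630). In delta cells of library 2, 17 UMIs lay in 12 of the 41 cells of cluster 12, a cluster with Gcg in every cell, and the 45 cells of that cluster in library 1, also all with Gcg, held 0. Without clusters of mixed markers the delta difference turned from 2.12 to a fitted -3.50, against 0 UMIs in cluster 3.

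**Figure D5:**
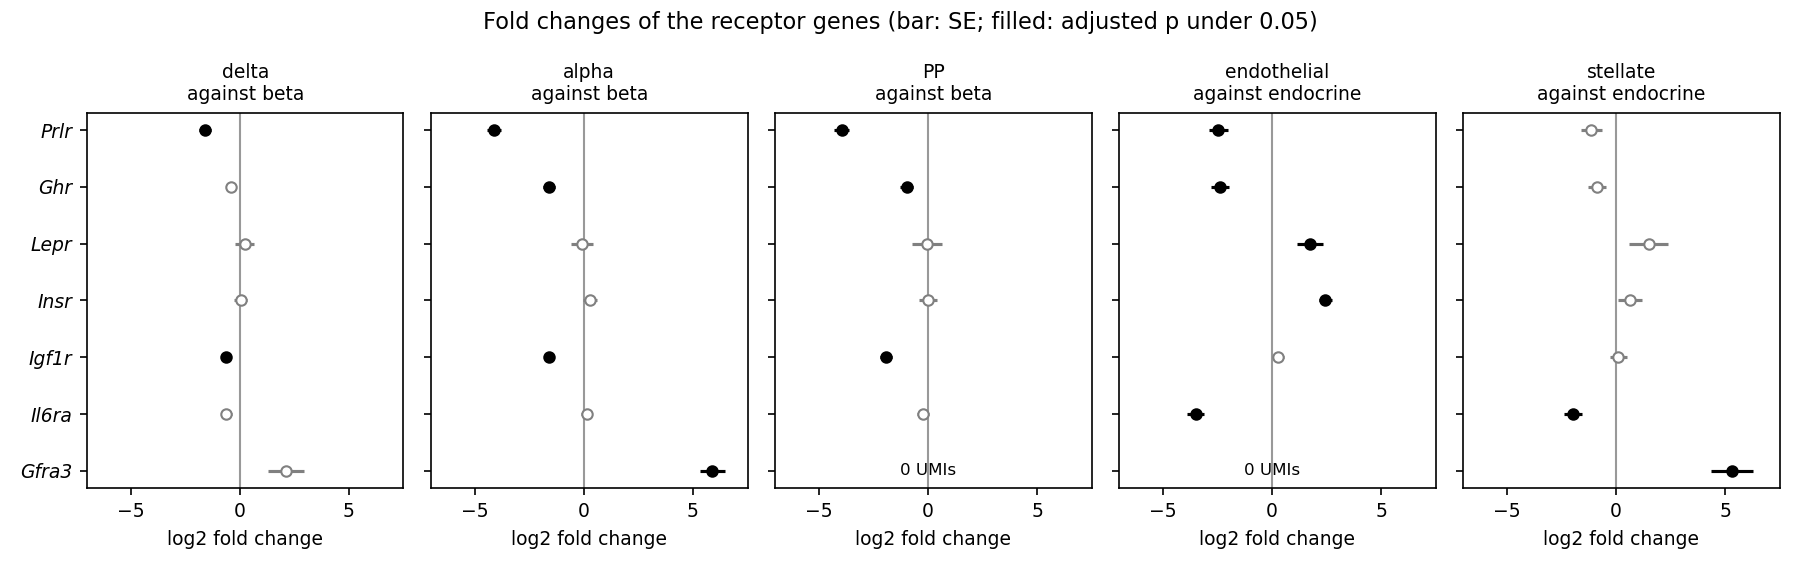
Log2 fold changes (x axis) of the 7 receptor genes (y axis) in 5 comparisons, 1 panel each, with a bar for the standard error from edgeR and a filled point where the adjusted p is under 0.05. Gfra3 has 0 UMIs in PP and endothelial cells and no point there, and Prlr is lower than in beta cells in delta, alpha and PP cells.

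Counted by comparison, 2 of 7 receptors were lower and 0 higher in delta than beta cells, where 13.8% of all genes differed (5.01% lower and 8.78% higher). In PP cells 3 of 7 were lower and 0 higher, where 17.3% differed (8.43% lower and 8.89% higher). Endothelial against endocrine cells gave 2 higher and 3 lower, beside 17.9% and 15% of genes (32.9% in all). Prlr and Ghr were lower there by -2.46 ± 0.44 and -2.38 ± 0.42 (SE, log2; adjusted p = 5.21e-05 and 3.60e-05), and by library Prlr was at -1.72 and -3.02 and Ghr at -1.42 and -4.23. Stellate against endocrine cells gave 1 higher and 1 lower, beside 10.2% and 6.47% (16.7% in all). Of these 16 calls in 5 comparisons, 8 held under every alternative with a test. Those were Prlr in alpha, PP and endothelial cells, Il6ra in endothelial and stellate cells, and Ghr, Lepr and Insr in endothelial cells. The Lepr call had a test in 7 of the 8 alternatives and rests on 14 UMIs, as given above. Ghr, Il6ra and Insr entered the tests of isoform usage in each comparison and Prlr in the non-endocrine one alone, while Lepr, Igf1r and Gfra3 did not enter. None of their transcripts passed the threshold of edgeR's diffSpliceDGE (smallest adjusted p 0.809), where 0.955% of genes did between alpha and beta cells, 0.815% between delta and beta cells, 0.648% between PP and beta cells and 0.965% between non-endocrine and endocrine cells. The shares of all transcripts that passed were 0.445%, 0.394%, 0.332% and 0.459%. Of these 40 transcript tests, that of the retained-intron Ghr-207 in PP cells alone fell below 0.05 before adjustment.

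Genes that relay or limit these receptors were followed from lists, with calls from the same edgeR fit. Endothelial and delta values of the lists are of whole types. They include the duct-like cluster 15, which held most endothelial UMIs of library 2, and the mixed delta clusters. Their counts stand beside shares of all genes, higher and lower, of 9.13% and 9.91% in alpha, 8.78% and 5.01% in delta, 8.89% and 8.43% in PP, 17.9% and 15% in endothelial and 10.2% and 6.47% in stellate cells. Of 24 JAK-STAT signalling genes tested, 1 was higher and 4 were lower in alpha than beta cells, with a median log2 fold change of -0.23 beside 0.02 over all genes. In delta cells 0 were higher and 3 lower (median -0.19, all genes 0.00), and in PP cells 1 was higher and 6 lower (median -0.56, all genes -0.03). Socs2 and Cish, feedback inhibitors induced by prolactin and growth hormone through STAT5, were lower in all 3. Socs2 stood at 112.4 and 110.3 CPM in beta cells, 49.6 and 54.3 in delta cells, 12.03 and 32.7 in PP cells and 6.80 and 15.8 in alpha cells. Cish stood at 40.2 and 39.0 in beta cells and 4.71 and 9.19 in alpha cells. Socs3, an inhibitor induced by gp130 receptors, was the 1 gene of this list higher in alpha cells (2.55 ± 0.26, SE, log2; adjusted p = 1.17e-08), at 31.4 and 72.6 against 6.61 and 17.3 in beta cells. In endothelial cells 8 were higher and 0 lower (median 0.47, all genes -0.11), with Socs3, Socs1 and Cish among them.

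Of 8 prolactin and growth hormone target genes tested, which share Socs2 and Cish with the list above, 1 was higher and 2 were lower in alpha cells (median 0.10, all genes 0.02; 9.13% and 9.91% of all genes called), 0 and 2 in delta cells (0.05, all genes 0.00; 8.78% and 5.01%), and 0 and 3 in PP cells (-0.07, all genes -0.03; 8.89% and 8.43%). The cell cycle gene Ccnd2 was the remaining lower gene in PP cells (-0.83 ± 0.27, SE, log2; edgeR adjusted p = 0.0345), and the transcriptional repressor Bcl6 was the higher gene in alpha cells (2.63 ± 0.76, adjusted p = 0.0136).

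Among 30 genes of insulin and IGF signalling tested, 2 were higher and 5 lower in alpha than beta cells (median -0.26, all genes 0.02; 9.13% and 9.91% of all genes called), 1 and 2 in delta cells (-0.16, all genes 0.00; 8.78% and 5.01%), and 2 and 6 in PP cells (-0.59, all genes -0.03; 8.89% and 8.43%). Grb10, an adaptor that inhibits the insulin and IGF1 receptors, had 217.6 and 167.6 CPM in alpha cells, 83.1 and 73.6 in PP cells, 56.2 and 49.1 in delta cells and 21.5 and 26.9 in beta cells, with no overlap between these types. It was higher than in beta cells in alpha (3.40 ± 0.24, SE, log2; edgeR adjusted p = 1.02e-11), PP (2.10 ± 0.27, 1.34e-06) and delta cells (1.16 ± 0.24, 0.000881). The PI3K subunit Pik3r1 and the kinase Akt1 were lower in alpha cells (-1.45 ± 0.24 and -1.03 ± 0.24). Irs2, a docking protein for both receptors, was higher there (1.37 ± 0.28, adjusted p = 0.000432).

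Of 11 IGF ligands, binding proteins and related genes tested, 1 was higher and 3 lower in alpha cells (median 0.03, all genes 0.02; 9.13% and 9.91% of all genes called), 1 and 2 in delta cells (0.09, all genes 0.00; 8.78% and 5.01%) and 1 and 4 in PP cells (-1.17, all genes -0.03; 8.89% and 8.43%). Pappa2, a protease that frees IGF from its binding proteins, was the higher gene in each, at 444.2 and 392.1 CPM in alpha, 164.0 and 171.7 in PP, 38.8 and 64.5 in delta and 7.72 and 9.57 in beta cells. Insrr, the insulin receptor-related receptor, was highest in beta cells at 202.7 and 206.5. Delta (99.3 and 101.5), alpha (21.4 and 17.9) and PP cells (5.47 and 9.81) followed. These delta levels are of the whole type, mixed clusters included. In endothelial cells 6 of the 11 were higher and 3 lower (median 2.41, all genes -0.11; 17.9% and 15% of all genes called). The ligand gene Igf1 had 77.0 and 198.1 CPM in endothelial and 315.0 and 10.1 in stellate cells, and at most 0.435 in any endocrine type. Igfbp3 had 1266 and 209.5 in endothelial cells.

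Of 15 other cytokine receptor genes tested, 11 were higher and 0 lower in endothelial than endocrine cells (median 1.35, all genes -0.11; 17.9% and 15% of all genes called), and 8 were higher and 0 lower in stellate cells (median 1.66, all genes -0.26; 10.2% and 6.47%). Examples in endothelial cells were the interferon gamma receptor chain Ifngr1 (3.39 ± 0.25, SE, log2; edgeR adjusted p = 3.79e-12) and the oncostatin M receptor Osmr, with 72.2 and 17.0 CPM there and at most 0.435 in endocrine types. Endothelial values here were not split by cluster, and in library 2 most of that type's UMIs were of the duct-like cluster 15. In alpha cells 2 of the 15 genes were higher and 2 lower (median -0.51). The counts were 0 and 2 (0.07) in delta cells and 2 and 2 (-0.07) in PP cells. The ciliary neurotrophic factor receptor Cntfr and the LIF receptor Lifr, which both signal through gp130, were lower than in beta cells in all 3, Cntfr at 52.7 and 34.0 in beta against 1.05 and 3.50 CPM in alpha cells.

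Of 6 genes of the GDNF receptor family and Ret tested, 2 were higher and 2 lower in alpha cells (median 0.35, all genes 0.02; 9.13% and 9.91% of all genes called), 3 and 1 in delta cells (1.53, all genes 0.00; 8.78% and 5.01%) and 1 and 2 in PP cells (-0.95, all genes -0.03; 8.89% and 8.43%). The signalling kinase Ret, the partner of Gfra3, was lower in alpha than beta cells. It had 51.4 and 49.0 CPM in beta cells, 46.6 and 32.1 in delta cells and 10.99 and 10.5 in alpha cells (-1.80 ± 0.27, SE, log2; edgeR adjusted p = 1.15e-05). Of the 107 delta UMIs of Ret in library 1, 10 lay in 1 cell. Gfra1, the receptor chain for GDNF, was higher than in beta cells in alpha (31.9 and 23.6 against 0.367 and 1.14), delta (34.8 and 20.96) and PP cells (18.6 and 29.4). Of 14 ligand genes 3 passed the low-count filter, and Nrtn, the ligand neurturin, was lower in alpha cells (-2.11 ± 0.32, adjusted p = 9.28e-06), at 19.4 and 12.7 against 107.9 and 76.4 in beta cells. Of 10 trafficking and shedding genes, 1 was higher and 1 lower in alpha cells, 1 and 0 in delta cells, 1 and 0 in PP cells, 4 and 1 in endothelial cells and 2 and 0 in stellate cells, counts that in alpha cells equal the share of all genes to the nearest gene, with Leprot first by adjusted p in endothelial cells (1.83 ± 0.23, adjusted p = 1.63e-07).

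As a description, the genes whose log2 level over the 12 sums of library and type followed each receptor most closely were found among 12632 genes by Pearson r, with no test, since the sums share libraries and depth. For Prlr they were Ppp1r1a (0.98), G6pc2 (0.98) and Prss53 (0.98). For Il6ra they were Gmpr (0.98), Efcab1 (0.97) and Pde4dip (0.97), and for Ghr Defb1 (0.95), B3galnt1 (0.94) and Kcnip1 (0.94). For Insr they were H2-T23 (0.96), Btbd7 (0.95) and Rdx (0.95), and for Lepr Sh2b3 (0.96), Stat2 (0.95) and Ints13 (0.92). Igf1r and Gfra3 had weaker neighbours, Ttc28 (0.92), Lmo1 (0.89) and Itpkb (0.88), and Sf1 (0.88), Pura (0.87) and Col9a2 (0.83).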

How the data were processed

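The deposited gene and transcript tables give raw UMI counts, not normalized, with a column for each cell barcode, and a cell table from the authors names the cluster of each kept barcode, per the file headers. The submitters' processing notes name mm10 and, for 3 of the samples, Seurat. The aligner, counting tool, use of strand and what subset the tables are, as they are marked, are not given in the sources used here. No column of other samples' values was present.

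UMIs of kept cells (4814 of 6395 barcodes and 1093 of 2124) were summed per library and type, giving 12 sums from the 6 types that both libraries held in at least 20 cells. These were fitted together in edgeR 4.0.16 (TMM, filterByExpr, quasi-likelihood test, type and library as terms, 5 residual degrees of freedom), with Benjamini-Hochberg adjustment at 0.05, two-sided. The endocrine mean is over alpha, beta, delta and PP coefficients. The SE is the log2 fold change divided by the square root of F. No label ties the libraries to separate animals or preparations, so p-values cannot be taken to measure a spread between animals. With the library as a term, they rest only on how type differences vary between these 2 libraries. That spread was estimated over all 6 types and shared across genes, which gave 28.1 total degrees of freedom for the receptors. The library was a block because each gives every type; differences between libraries correlated across types by 0.47 to 0.66 over endocrine pairs and 0.15 to 0.66 over all 15 pairs (6467 genes). Isoform usage was tested with diffSpliceDGE on transcripts with 10 UMIs and 5% of the gene. Coding forms were classed by stop codon in GENCODE M21, with complete coding sequences only. Intervals of levels are exact Poisson and of shares exact binomial, at 95%, for counting error only. Cells were thinned to 1000 UMIs with a fixed seed, leaving out 464 shallower cells of library 1 and none of library 2. Scrublet in scanpy 1.11.5 called 0.125% and 1.19% of cells as doublets, under its expected rate, so an alternative left out the 6% with the highest scores. The fits were tested on simulated data. The alternatives were DESeq2 1.42.0, no TMM, no filter, no block, the authors' clusters from transcripts, the sums without the 7 mixed or foreign clusters (own-marker clusters), counts thinned to equal totals, and each library alone. In the own-marker clusters, the endothelial type of library 2 was left with 10 cells, and the minimum of 20 cells was not applied again.

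All 7 genes are named in every comparison, up to 4 genes of a list per comparison by adjusted p, and the 3 most similar genes of each receptor; a few further list genes were named after their values were seen. The genes and the lists were chosen with earlier results of these data known.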

Additional observations from a re-analysis of the deposited data

How the results depend on the processing

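The replicate block (the library as a term) changed many counts. Without it, the number of genes past the threshold went from 2525 to 1281 for alpha, from 1829 to 862 for delta and from 2297 to 1149 for PP against beta cells, and genes by isoform usage went from 53 to 13, 49 to 18, 33 to 9 and, for non-endocrine cells, 65 to 38. Thinning the sums to equal totals, which leaves fewer genes tested, gave 183, 81, 177, 1197 (endothelial) and 953 (stellate) genes. DESeq2 gave 1195 for delta cells. Without TMM the alpha count was 4043, 708 higher and 3335 lower in place of 1211 and 1314, and the all-gene median shifted to -0.39 from 0.02 in alpha, to -0.42 from -0.03 in PP, to 0.22 from -0.11 in endothelial and to 0.02 from -0.26 in stellate cells. For PP cells the split was then 656 higher and 2746 lower, in place of 1179 and 1118, for endothelial cells 3086 and 1262, in place of 2370 and 1995, and for stellate cells 1586 and 472, in place of 1358 and 858. Summing transcripts by stop codon gave 26, 19, 17 and 35 genes, and own-marker clusters gave 30 for delta cells. Several receptor differences that had not passed the threshold changed sign: Insr in alpha (-0.15) and Il6ra in alpha cells (-0.28) without TMM, Insr in delta cells without TMM (-0.00077), without the filter (-0.00065) and in own-marker clusters (-0.0307), Insr in PP cells without TMM (-0.41), without the filter (-0.0621), thinned (-0.24) and without the highest doublet scores (-0.0329), Lepr in delta cells without those scores (-0.0485), Igf1r in endothelial cells (-0.32) and Gfra3 in delta cells (-3.50) in own-marker clusters, and the share of Ghr-201 in delta cells there (1.25 percentage points). Gfra3 in stellate cells was -3.05 without replicate 2 and 5.88 without replicate 1. The cause was not tested. With all transcripts as the denominator the mean long share was 91.5% (Prlr, beta), 92.5% (Prlr, delta), 39.0%, 36.9%, 39.2% and 34.1% (Ghr in beta, alpha, delta and PP cells), and in own-marker clusters 99.5% (Prlr) and 56.3% (Ghr) in delta cells. Unthinned shares of cells with a UMI were 83.3% (Prlr), 57.8% (Ghr), 18.3% (Insr), 45.6% (Igf1r) and 66.0% (Il6ra) of beta cells, 5.70% (Lepr) of delta and 15.8% (Gfra3) of alpha cells. With each library left out, counts of genes have no test, since no residual degrees of freedom remain. Lepr, and Gfra3 outside alpha cells, rested on few UMIs.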
